A study of Mus musculus with 18 samples.

Results

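Zfp genes code for zinc finger proteins, most of which fold short stretches of the chain around a zinc ion through 2 cysteines and 2 histidines and use a row of such fingers to read DNA. Many carry a KRAB domain, which recruits the corepressor TRIM28 and with it heterochromatin to the bound site. A smaller group with CCCH fingers, among them Zfp36l1 and Zfp36l2, binds AU-rich elements of messenger RNAs and hastens their decay. The family is one of the largest of the mouse genome, many members lie in clusters of closely related copies, and in brain several of them act in neural differentiation and myelination.

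The genes were taken by name: the zero-padded number in each probe identifier was read as a mouse gene ID, and every ID whose symbol was Zfp followed by a digit was kept. This gave 170 Zfp genes with 222 probes, out of 8127 genes named in this way on the array. The data are bead array intensities of total RNA, 100 ng per sample, from cortex and hippocampus of CD-1 mice labelled male and 16 days old, with 6 groups of 3 arrays. Control mice had no treatment named in the labels. The other mice had 2 weeks of hypoxia from postnatal day 2, either chronic consistent hypoxia (CCH) or chronic intermittent hypoxia (CIH), and the oxygen levels and cycles are not given in the labels. The CIH groups follow the sample titles and descriptions, since the series design text names CCH-treated mice as the source of the CIH samples while giving CIH as the treatment studied. The comparisons ask which transcripts differ after each kind of hypoxia and between the tissues. Nothing in the labels says whether the arrays of a group came from separate animals, so the p-values measure the spread between these samples, part of which may be technical. Nor do they say whether cortex and hippocampus arrays came from the same animals. Comparisons that join or set against each other the 2 tissues treat their arrays as independent.

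A probe was called detected on an array when its signal exceeded that of at least 99% of the negative controls (a detection score above 0.99), and measured when it was detected on at least 3 of the 18 arrays. Between 12251 and 14530 probes were detected per array, and 14664 probes were measured and tested together. The number of arrays limits the precision of every value. Levels are log2 signals after background correction and quantile normalization, and the lowest signal of a detected probe lay between 6.68 and 6.76 on the 18 arrays. The tissue labels held for the measured cortex neuron and hippocampus markers. In hippocampus against cortex of control arrays, 3 of 3 measured cortex neuron markers were lower and 3 of 3 hippocampus markers were higher, all past the test. The 1 measured striatum marker, of 6 listed, was also lower in hippocampus, with a log2 difference of -2.15, past the test. Of 3 measured thalamus markers, 1 was higher and 1 lower past the test. The part of neighbouring regions in the tissue differences was not tested. On 5 arrays the signals went against the label male. In cortex these were replicates 2 and 3 of CCH and replicate 2 of CIH, and in hippocampus replicate 3 of CCH and replicate 2 of CIH. They had high signals of Xist, the RNA of the inactive X chromosome, between 9.36 and 10.18, and Kdm5d of the Y chromosome was below detection there. The other 13 arrays had Xist at or below 6.57, so replicates of 1 group differed in Xist in all 4 hypoxia groups. Among these 13, Kdm5d was also below detection on control cortex 2, at 6.71, beside 6.46 to 6.51 on the 5 arrays. No control array was among the 5, so each called Zfp result is also given for the low-Xist arrays alone.

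Slightly fewer Zfp probes were measured than other named probes, 41.0% against 44.9% of 9610. Of the 222 Zfp probes, 65 were detected on all 18 arrays, 26 on 3 to 17, 3 on 1 or 2 and 128 on none. The 91 measured probes belonged to 82 genes, which leaves 88 genes without a measured level. Chromosome 7 held 40 of the genes, of which 19 were measured, and chromosome 17 held 24, of which 6 were measured. Chromosomes 13, 6 and 8 followed with 16, 13 and 13 genes, of which 6, 10 and 6 were measured. Of 44 genes with several probes, 16 had a measured and an unmeasured probe, 20 had none measured and 8 had all measured, so a missing signal belongs to the probe and not always to the gene. Of 2 pseudogenes in the set, 1 was measured (Zfp862-ps). Zfp paralogs share finger sequence, probe sequences were not used here, and binding of a relative's transcript to a probe was not tested.

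The 91 Zfp probes had a median log2 change against control of the same tissue of -0.01 under CCH and -0.01 under CIH in cortex, and of -0.04 and -0.02 in hippocampus, beside medians within 0.01 of 0 over all measured probes. The median size of a change, whatever its sign, was 0.06, 0.07, 0.06 and 0.05 in the same order, and over all probes 0.07, 0.06, 0.06 and 0.05. In CCH hippocampus 64 of 91 Zfp probes had a lower mean than control and 27 a higher one, while over all probes 48.1% were higher. Lower means were found for 60 Zfp probes in CIH hippocampus, 55 in CIH cortex and 50 in CCH cortex. Over all probes 49.5%, 53.4% and 49.5% were higher in these comparisons. Control hippocampus itself had a higher mean than control cortex for 58 of the 91 Zfp probes. The 4 comparisons share the control arrays of their tissue.

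**Figure D1:**
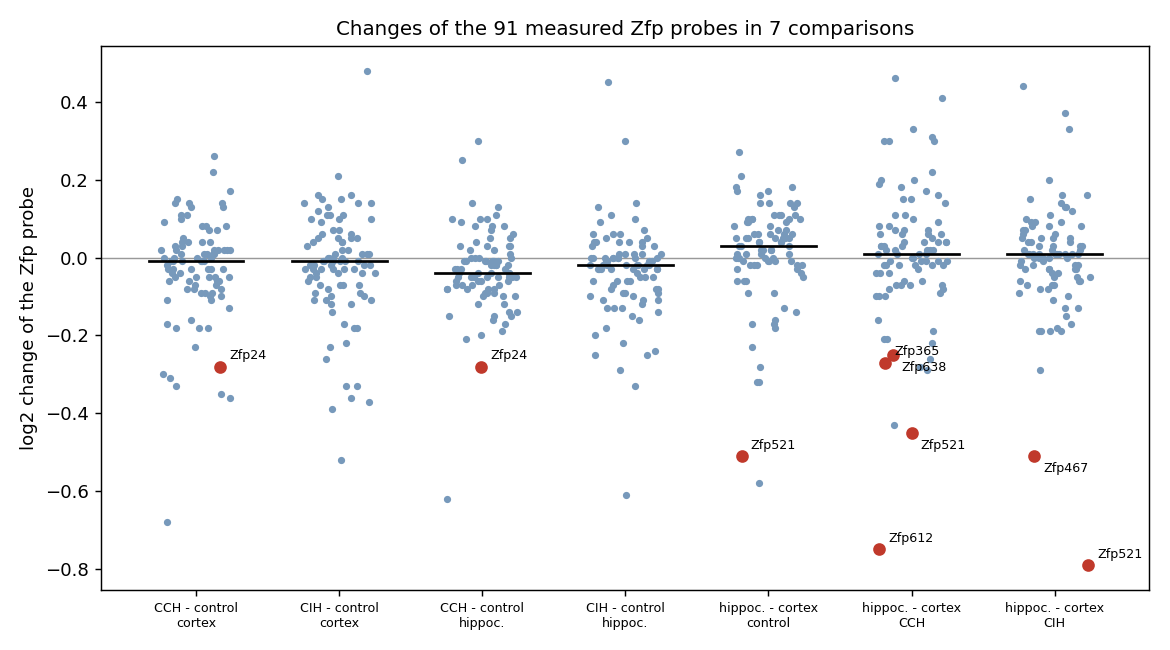
Log2 change of the 91 measured Zfp probes (vertical axis) in 7 comparisons (horizontal axis), with the median of the Zfp probes as a black bar. Large labelled points passed an adjusted p under 0.05. Zfp24 was called in CCH of both tissues, and all called differences between hippocampus and cortex were below 0.

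In CCH against control, Zfp24 was the single Zfp gene that passed the test in cortex and the single one in hippocampus, out of 91 probes, where 0.846% of all probes passed in cortex and 0.518% in hippocampus. Zfp24, also known as Zfp191, is a nuclear C2H2 protein that mouse oligodendrocytes need in order to mature and form myelin. It lies on chromosome 18 and has 1 probe. In control cortex the log2 signal of Zfp24 was 6.95, 6.97 and 6.91, and in CCH cortex it was 6.64, 6.66 and 6.69. In CIH cortex it was 6.90, 7.05 and 6.91. In the hippocampus the values were 6.94, 7.01 and 7.05 in control, 6.71, 6.71 and 6.73 in CCH, and 7.0, 6.94 and 6.96 in CIH. All 6 CCH arrays lay below the other 12 arrays with no overlap, and on all 6 the probe was below detection, while it was detected on each of the other 12. Of the 14664 measured probes, 27 had all 6 CCH arrays below the other 12. The Zfp24 probe was the only one with that pattern of detection. The pattern was taken from the Zfp24 values themselves, so its rarity is no separate support for the call.

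The measured difference of Zfp24 in CCH cortex was -0.28 ± 0.04 (standard error, n = 3 and 3; limma adjusted p = 0.0053), and since the CCH signal was below detection it stands for a level at least 1.16-fold lower. Such bounds set the mean of the bright group against, for each array of the dim group, the lowest signal of a detected probe or the probe's own value if higher. In CCH hippocampus the difference was -0.28 ± 0.04 (limma adjusted p = 0.0046), at least 1.19-fold. Averaged over both tissues it was -0.28 ± 0.03 (limma adjusted p = 0.00012), and on the low-Xist arrays alone -0.30 (limma adjusted p = 0.0037). By tissue, the low-Xist arrays gave -0.30 in cortex (limma adjusted p = 0.019) and -0.29 in hippocampus (limma adjusted p = 0.037), where 1 CCH cortex array and 2 CCH hippocampus arrays remained. Within each of the 3 slides the CCH array was lower than the control array, with differences of -0.31, -0.31 and -0.22 in cortex and of -0.24, -0.30 and -0.31 in hippocampus. With no background correction the difference was -0.60 in cortex and -0.55 in hippocampus, and fitted on the compared groups alone it lost its call in both tissues (limma adjusted p = 0.098 and 0.17). Because a group kept 1 position on all 3 slides, effects of position and of group cannot be told apart.

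Intermittent and continuous hypoxia differed in Zfp24. It was higher in CIH than in CCH by 0.29 ± 0.04 in cortex (limma adjusted p = 0.005), at least 1.18-fold, and by 0.25 ± 0.04 in hippocampus (limma adjusted p = 0.024), at least 1.17-fold. In these comparisons 1 Zfp probe of 91 passed in each tissue, against 0.471% of all probes in cortex and 0.286% in hippocampus. The hippocampus difference lost its call when any 1 of the 3 CCH or 3 CIH hippocampus arrays was left out (highest limma adjusted p = 0.11) and on the low-Xist arrays alone (0.27, limma adjusted p = 0.11). The cortex difference on the low-Xist arrays was 0.27 (limma adjusted p = 0.047). Fitted on the compared groups alone, the calls were lost in cortex (limma adjusted p = 0.23) and in hippocampus (limma adjusted p = 0.12).

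Markers of several cell types also differed between CCH and control. All 8 measured oligodendrocyte markers, of 13 listed, had lower means in CCH than in control in both tissues, 3 past the test in cortex and 5 in hippocampus. In CIH all 8 also had lower means than in control in both tissues, with 0 past the test in either. Their summed linear signal was 9431 to 9557 in control cortex, 6926 to 7594 in CCH cortex and 6785 to 8601 in CIH cortex. In hippocampus it was 6930 to 8993 in control, 4206 to 6007 in CCH and 5556 to 7126 in CIH. Erythroid markers, 3 measured of 4 listed, were higher in CCH in both tissues, with sums of 21210 to 23717 in CCH cortex against 7888 to 11165 in control cortex and of 14878 to 17180 against 5768 to 8188 in hippocampus. Endothelial markers, 3 measured of 8 listed, had sums of 883 to 971 in CCH cortex against 670 to 685 in control cortex. The part of these cells in the Zfp24 result was not tested. In whole tissue, fewer cells of a type and less RNA per cell cannot be told apart.

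**Figure D2:**
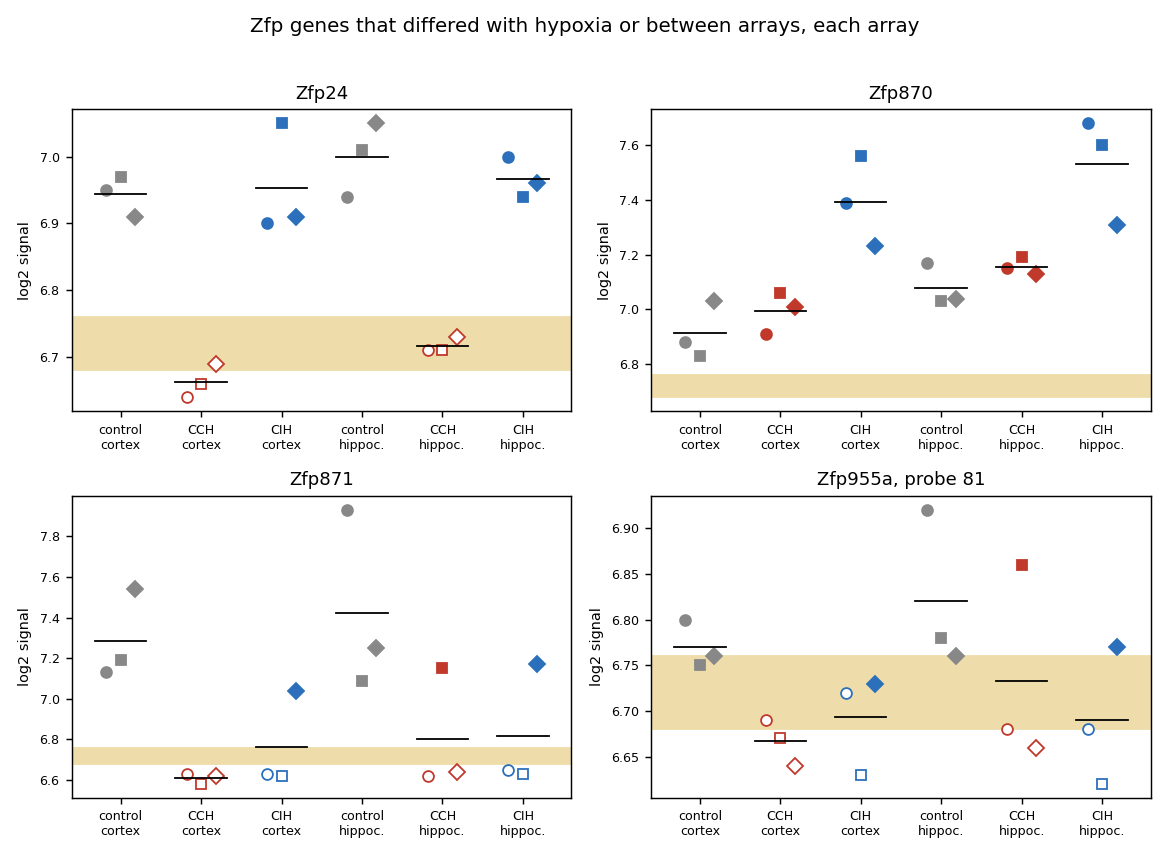
Log2 signal (vertical axis) of 4 Zfp probes on each array by group (horizontal axis), with circles, squares and diamonds for replicates 1, 2 and 3, open symbols below detection, black bars for group means and the shaded band for the range of the detection floor over the arrays. All 6 CCH arrays of Zfp24 are open, all 6 CIH arrays of Zfp870 lie above the other 12, and Zfp871 and Zfp955a are filled on the same 9 arrays.

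In CIH, Zfp870 was the Zfp gene that stood out. Zfp870 lies on chromosome 17 in a run of related Zfp genes. Its log2 signal was 6.88, 6.83 and 7.03 in control cortex, 6.91, 7.06 and 7.01 in CCH cortex, and 7.39, 7.56 and 7.23 in CIH cortex. In hippocampus it was 7.17, 7.03 and 7.04 in control, 7.15, 7.19 and 7.13 in CCH, and 7.68, 7.60 and 7.31 in CIH. All 6 CIH arrays lay above all 12 others, a pattern shown by 12 of the 14664 measured probes, of which 5 had a gene name. This pattern too was set after the values were seen. CIH and control differed by 0.48 ± 0.10 in cortex (limma adjusted p = 0.067) and by 0.45 ± 0.10 in hippocampus (limma adjusted p = 0.11), neither past the threshold. Averaged over both tissues the rise was 0.47 ± 0.07, or 1.38-fold (limma adjusted p = 0.0032), the 1 Zfp call of that comparison, in which 0.900% of all probes passed. The probe was detected on all 18 arrays.

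Zfp870 was higher in CIH than in control within every slide, by 0.52, 0.73 and 0.20 in cortex and by 0.51, 0.57 and 0.28 in hippocampus. Replicate 3, with the lowest CIH value in each tissue, showed the smallest difference. On the low-Xist arrays alone the averaged difference was 0.41 (limma adjusted p = 0.072), no longer past the threshold, and it passed in all 18 fits that left out 1 array (limma adjusted p between 0.0011 and 0.014). Against CCH, CIH was higher by 0.40 ± 0.10 in cortex (limma adjusted p = 0.11) and by 0.37 ± 0.10 in hippocampus (limma adjusted p = 0.19). Across both tissues, all 8 measured oligodendrocyte markers also had lower means in CIH than in control, 5 of them past the test, with the sums given above. All 3 measured erythroid markers had higher means in CIH, 1 of them past the test, with sums of 11685 to 12656 in CIH cortex against 7888 to 11165 in control cortex and of 8593 to 10140 against 5768 to 8188 in hippocampus. The part of these cells in the Zfp870 result was not tested.

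CIH against control gave no Zfp call within either tissue. In cortex 0 of 91 Zfp probes passed limma, against 0.150% of all probes, and 5 had an unadjusted p under 0.05 (5.49%, against 6.38% of all). In hippocampus 0 of 91 passed, against 0.0614% of all probes, and 6 had an unadjusted p under 0.05 (6.59%, against 6.39%). In CCH, 8 Zfp probes had an unadjusted p under 0.05 in cortex (8.79%, against 10.8%) and 2 in hippocampus (2.20%, against 8.39%).

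Zfp871, a second gene of the run on chromosome 17, had a lower mean in each hypoxia group than in control. Its level also differed between arrays of the same group. Its log2 signal was 7.13, 7.19 and 7.54 in control cortex and 6.63, 6.58 and 6.62 in CCH cortex. It was 6.63, 6.62 and 7.04 in CIH cortex and 7.93, 7.09 and 7.25 in control hippocampus. In CCH hippocampus it was 6.62, 7.15 and 6.64, and in CIH hippocampus 6.65, 6.63 and 7.17. The probe was detected on all 6 control arrays, on replicate 3 of CIH in either tissue and on replicate 2 of CCH hippocampus, and it was near or under the detection floor on the other 9. Control and CCH did not overlap in cortex but did in hippocampus.

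Against control, Zfp871 differed by -0.68 ± 0.22 in CCH cortex (limma adjusted p = 0.22), where the bound is at least 1.48-fold, and by -0.52 ± 0.22 in CIH cortex (limma adjusted p = 0.71). In hippocampus the differences were -0.62 ± 0.22 in CCH (limma adjusted p = 0.36) and -0.61 ± 0.22 in CIH (limma adjusted p = 0.57). Averaged over both tissues Zfp871 passed in CCH at -0.65 ± 0.15 (limma adjusted p = 0.043) beside Zfp24, so that 2 of 91 probes were called, against 2.20% of all probes. This call was lost with the replicate block (limma adjusted p = 0.051), on the low-Xist arrays (limma adjusted p = 0.2), in 14 of the 18 fits that left out 1 array (highest limma adjusted p = 0.11) and in 4 other alternatives. Without CCH hippocampus 2 the difference was -0.73 (limma adjusted p = 0.027). The averaged CIH difference was -0.57 ± 0.15 (limma adjusted p = 0.13).

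A probe of Zfp955a, further along chromosome 17, was detected on exactly the same 9 arrays as Zfp871. Its log2 signal was 6.80, 6.75 and 6.76 in control cortex, 6.69, 6.67 and 6.64 in CCH cortex, and 6.72, 6.63 and 6.73 in CIH cortex. In hippocampus it was 6.92, 6.78 and 6.76 in control, 6.68, 6.86 and 6.66 in CCH, and 6.68, 6.62 and 6.77 in CIH. These signals span a narrow range around the detection floor. Among the 14664 measured probes, 3097 of which were detected on 3 to 15 arrays, it was the only one besides Zfp871 with this pattern over all 18 arrays, an observation made after the values were seen. The second Zfp955a probe had the same detection as Zfp871 on 13 of 18 arrays, and over the 18 arrays the signals of the 2 Zfp955a probes correlated at 0.42. No Zfp955a probe passed in any hypoxia comparison.

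In the RefSeq gene order, 2 protein-coding genes lie between Zfp871 and Zfp870, 11 between Zfp870 and Zfp955a, and 59 between Zfp871 and H2-Ab1, a class II antigen-presenting gene of the major histocompatibility complex. The 2 H2-Ab1 probes had the same detection as Zfp871 on 14 and 13 of 18 arrays. H2-D1, a class I gene with 125 genes between it and Zfp871, was the reverse, with opposite detection on 16 of 18 arrays. Other probes of this stretch that were not detected throughout matched Zfp871 on fewer arrays, Zfp414 and Cd320 on 8 and H2-DMb2 on 11. A probe detected on all 18 arrays matched it on 9. The log2 signal of H2-D1 was between 6.53 and 6.58 on the 6 control arrays and CCH hippocampus 2, and between 7.67 and 8.76 on the remaining 11. Zfp870, which lies between Zfp871 and Zfp955a, did not follow this split among the CCH and control arrays, which overlapped in both tissues. Among the CIH arrays Zfp870 was lowest on CIH cortex 3 and CIH hippocampus 3, where Zfp871 was detected. CCH hippocampus 2, which sat with the controls in Zfp871, Zfp955a and H2-D1, was below detection for Zfp24 like the other CCH arrays. The arrays on either side of this split were not compared in any test.

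**Figure D3:**
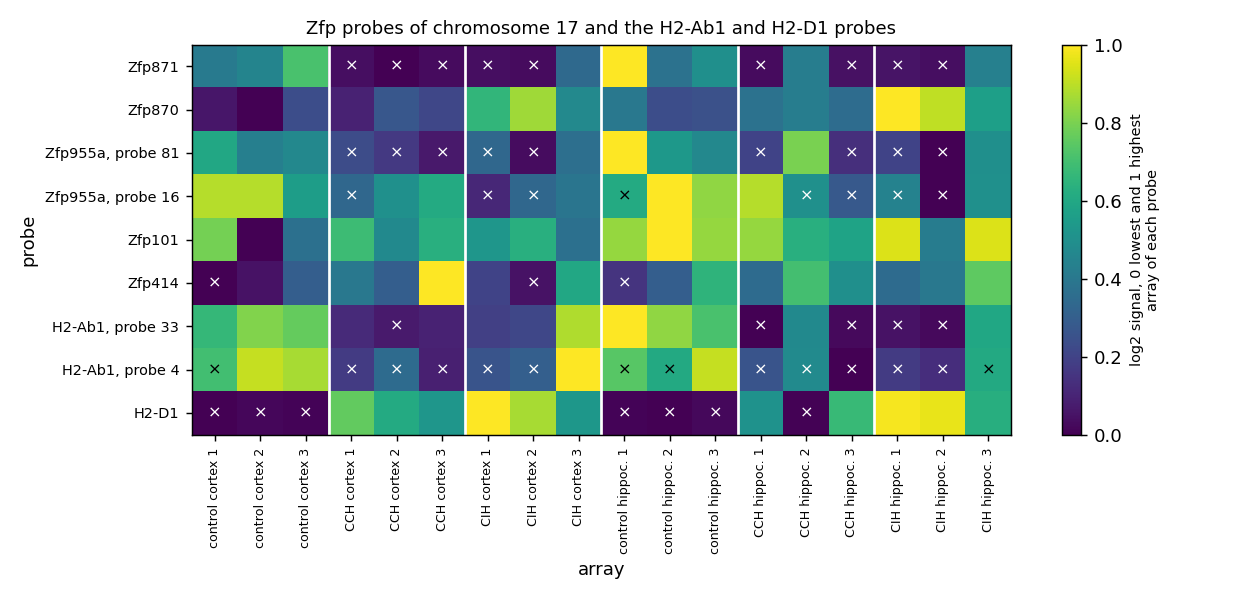
Log2 signal of 9 probes of chromosome 17 (rows) on the 18 arrays (columns, in groups of 3), scaled for each probe from 0 on its lowest to 1 on its highest array, with a cross where the probe was below detection. Zfp871 and probe 81 of Zfp955a carry crosses on the same 9 arrays, and H2-D1 carries crosses on the 6 controls and CCH hippocampus 2.

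The promoters of Zfp871 and Zfp955a are shown because Zfp871 and 1 of the 2 Zfp955a probes share their detection over the arrays. They come from RefSeq on build GRCm38.p6 and run from 250 bases before to 50 bases after the annotated start, 5′ to 3′ on the strand of the gene. Capitals mark the letters ACGTG or GCGTG on either strand, the core to which hypoxia-inducible factors bind, and overlapping matches run together. The first start of Zfp871 lies at chr17:32788238-32788537 (minus strand) and the second at chr17:32787498-32787797 (minus strand). The start of Zfp955a lies at chr17:33255096-33255395 (minus strand).
Zfp871, first start: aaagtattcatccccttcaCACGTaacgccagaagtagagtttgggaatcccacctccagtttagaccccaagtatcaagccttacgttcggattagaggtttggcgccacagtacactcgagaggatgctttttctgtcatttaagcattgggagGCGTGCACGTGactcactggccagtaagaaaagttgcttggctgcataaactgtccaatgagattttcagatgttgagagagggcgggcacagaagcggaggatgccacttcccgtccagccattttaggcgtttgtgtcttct
Zfp871, second start: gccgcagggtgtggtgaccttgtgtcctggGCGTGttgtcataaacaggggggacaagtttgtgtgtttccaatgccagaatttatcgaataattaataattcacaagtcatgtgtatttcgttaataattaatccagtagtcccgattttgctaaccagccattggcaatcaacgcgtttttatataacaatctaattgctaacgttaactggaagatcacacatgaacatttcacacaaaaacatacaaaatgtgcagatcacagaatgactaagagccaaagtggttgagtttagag
Zfp955a: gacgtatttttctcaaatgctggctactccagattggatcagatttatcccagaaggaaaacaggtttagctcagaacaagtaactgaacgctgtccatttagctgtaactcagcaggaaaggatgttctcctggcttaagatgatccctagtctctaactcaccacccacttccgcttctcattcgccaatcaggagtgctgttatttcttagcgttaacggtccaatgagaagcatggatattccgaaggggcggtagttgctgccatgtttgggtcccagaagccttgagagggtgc
The first Zfp871 window held 4 matches, 3 of them adjoining or overlapping in a single run, the second held 1, and the Zfp955a window held 0. Of all 32851 RefSeq promoter windows of this length, 43.8% held at least 1 match, and of the 160 windows of the 136 Zfp genes in the table, 56.9% did. A match is a description of letters and not a binding site. The table gave no window for Zfp870.

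Means of other Zfp genes differed between hypoxia and control without passing the test. In CCH cortex 9 Zfp probes lay above and 8 below control with no overlap of the 3 and 3 arrays (18.7%, against 15.1% of all probes). The 5 highest of those above control were Zfp316 at 0.26 ± 0.08 (limma adjusted p = 0.21), Zfp330 at 0.17, Zfp94 and Zfp90 at 0.14 and Zfp638 at 0.13. The value of Zfp316 rested on CCH cortex 1, at 7.51, beside 7.12 and 7.14 on the other CCH arrays and 6.93 to 7.11 in control. The most negative of those below, after Zfp871, were the brighter of the 2 Zfp467 probes at -0.36 ± 0.11 (limma adjusted p = 0.19; the other probe at 0.07), Zfp219, a partner of Sox9 in mouse cartilage, at -0.33 ± 0.18, and Zfp346, a protein that binds double-stranded RNA, at -0.30 ± 0.18.

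CIH cortex had 7 Zfp probes above and 9 below control with no overlap (17.6%, against 12.5% of all probes). Among these, the largest positive differences after Zfp870 were Zfp28 and Zfp316 at 0.15, Zfp653 at 0.10 and Zfp78 at 0.06. Again among probes with no overlap, the largest negative differences after Zfp871 were Zfp612 at -0.39 ± 0.18 (limma adjusted p = 0.78), Zfp536, a repressor of neuronal differentiation, at -0.37 ± 0.18, Zfp704 at -0.33 ± 0.25 and Zfp318 at -0.26 ± 0.14. Zfp536 was 8.89, 9.04 and 8.83 in control cortex and 8.52, 8.43 and 8.71 in CIH cortex. Its groups did not overlap there, whereas in hippocampus control ran from 8.89 to 9.18 and CIH from 8.68 to 9.10.

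CCH hippocampus had 2 Zfp probes above and 6 below control with no overlap (8.79%, against 12.2% of all probes). Beyond Zfp24 these included Zfp513 at 0.25 ± 0.18, the same Zfp467 probe as in cortex at -0.17 ± 0.11 (the other probe at -0.05), Zfp276 at -0.15 ± 0.08 and Zfp62 at -0.06. Zfp566 was below detection on all 3 CCH arrays, at least 1.01-fold lower than control. Zfp773 also met the rule but was below detection on every hippocampus array, so its values there have no order. None of the others had a limma adjusted p under 0.67.

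CIH hippocampus had 3 Zfp probes above and 8 below control with no overlap (12.1%, against 9.48% of all probes). Zfp330 at 0.13 and Zfp324 at 0.10 followed Zfp870 among the positive differences. The 5 most negative were the brighter Zfp467 probe at -0.33 ± 0.11 (limma adjusted p = 0.51), Zfp579 at -0.29 ± 0.17, Zfp276 at -0.22 ± 0.08, Zfp94 at -0.18 ± 0.06 and Zfp236 at -0.16 ± 0.08. The other Zfp467 probe differed by 0.00. The Zfp276 log2 signal was 7.34, 7.32 and 7.55 in control hippocampus, 7.27, 7.24 and 7.25 in CCH and 7.21, 7.23 and 7.10 in CIH. Both hypoxia groups lay below control without overlap, and neither difference passed (limma adjusted p = 0.67 and 0.52).

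Zfp94 came closest to the threshold between the kinds of hypoxia in hippocampus after Zfp24. Its log2 signal was 7.53, 7.37 and 7.42 in control hippocampus, 7.51, 7.54 and 7.53 in CCH and 7.31, 7.24 and 7.22 in CIH. CIH lay below both other groups, with a difference of -0.27 ± 0.06 against CCH (limma adjusted p = 0.074) and of -0.18 ± 0.06 against control (limma adjusted p = 0.42). In cortex CIH, at 7.37, 7.32 and 7.24, overlapped both other groups.

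Between CIH and CCH, 6 Zfp probes were higher and 9 lower with no overlap in cortex (16.5%, against 13.9% of all probes), and 7 were higher and 6 lower in hippocampus (14.3%, against 13.6%). Besides Zfp24 and Zfp870, in cortex Zfp219 was higher in CIH by 0.47 ± 0.18 (limma adjusted p = 0.38), Zfp180 by 0.35 ± 0.12 and Zfp521 by 0.27 ± 0.09. The 5 most negative differences in cortex were Zfp704 at -0.47 ± 0.25, 1 of the 2 Zfp445 probes at -0.27 ± 0.18, Zfp148, which binds GC-rich promoters, at -0.27 ± 0.12, Zfp365 at -0.25 ± 0.08 (limma adjusted p = 0.22) and Zfp292 at -0.23 ± 0.15. Zfp445 in mouse guards imprinted genes. Its 2 measured probes correlated at -0.22 over the 18 arrays, but the other probe was detected on only 3 of them and lay near the detection floor. In hippocampus Zfp612 was higher by 0.15, Zfp316 by 0.11 and Zfp566, below detection in CCH, at least 1.04-fold, and the negative differences included the brighter Zfp467 probe at -0.16, Zfp653 at -0.09, and Zfp276 and Zfp93 at -0.07, none of them with a limma adjusted p under 0.67.

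The CCCH members were covered in part. Zfp36l1 had 1 measured probe, with log2 signals of 9.76, 9.05 and 9.45 in control cortex, 9.40, 8.95 and 9.39 in CCH cortex and 9.63, 8.57 and 9.36 in CIH cortex. In hippocampus it was 9.78, 8.77 and 9.19 in control, 9.80, 9.33 and 9.53 in CCH and 9.87, 9.33 and 9.46 in CIH. Replicate 2 was the lowest array of every group, replicate numbers equal slides, and all groups of a tissue overlapped across slides. In each comparison the differences from control within the 3 slides had 1 sign: -0.36, -0.10 and -0.06 for CCH cortex, -0.13, -0.48 and -0.09 for CIH cortex, 0.02, 0.56 and 0.33 for CCH hippocampus, and 0.09, 0.56 and 0.27 for CIH hippocampus. How often the 3 slides share a sign over all probes was not counted. CCH and CIH of a tissue are also set against the same control arrays. The largest hypoxia differences from control were 0.30 ± 0.29 in both hippocampus comparisons, and none passed. The second Zfp36l1 probe and the Zfp36l2 probe were detected on no array. Of 20 listed genes of deadenylation and decapping, through which CCCH proteins act, 11 were measured and 0 passed in any hypoxia comparison.

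Partners of KRAB zinc fingers were also sparse. Of 22 listed genes of the TRIM28 corepressor and heterochromatin, 6 were measured and 0 passed in any comparison, with median changes under CCH and CIH of -0.11 and -0.04 in cortex and -0.09 and -0.11 in hippocampus. Of 84 listed zinc finger transcription factors with other names, 27 were measured, and 1 fell in CCH cortex and in CIH cortex. This was Egr2, an activity-induced factor also needed for myelination by Schwann cells, at -0.97 ± 0.15 in CCH cortex (limma adjusted p = 0.0081) and -0.88 ± 0.15 in CIH cortex (limma adjusted p = 0.044), beside -0.07 and -0.08 in hippocampus.

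Few Zfp probes differed between the tissues. In control arrays 1 of 91 Zfp probes was called between hippocampus and cortex, against 11.7% of all probes, and in CCH 4 of 91 against 14.3%, and in CIH 2 of 91 against 10.7%. Leaving out 1 array gave 1 to 3 calls in control, 2 to 6 in CCH and 2 to 4 in CIH, the slide block gave 3 in control and 7 in CCH, median centring gave 10 in CCH, and the compared groups alone gave 1 in CCH. Groups of 3 did not overlap for 15.4%, 19.8% and 8.79% of Zfp probes in control, CCH and CIH, against 26.8%, 31.2% and 28.0% of all probes. The sign of the difference was the same in the 3 sets of arrays for 37.4% of Zfp probes and 52.2% of all probes. Of the 27 other zinc finger factors, 6 were higher and 5 lower in control hippocampus than in control cortex, all past the test. These were counted as genes, each by its probe with the smallest p, and not as probes. Their list was chosen by hand and includes Zbtb20 and Fezf2, which are also on the hippocampus and cortex marker lists. The count is therefore not a like share for the Zfp probes. Whether the shares differ beyond chance was not tested.

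Zfp521 was lower in hippocampus under every condition. Zfp521 is a cofactor with many fingers that drives embryonic stem cells towards the neural lineage in mouse. Its log2 signal in cortex was 8.68, 8.37 and 8.46 in control, 8.53, 8.47 and 8.33 in CCH, and 8.85, 8.73 and 8.56 in CIH. In hippocampus it was 7.90, 8.05 and 8.04 in control, 7.99, 8.04 and 7.93 in CCH, and 8.07, 7.85 and 7.85 in CIH. All 9 hippocampus arrays lay below all 9 cortex arrays, which held for 1.10% of Zfp probes and 8.20% of all probes. The difference, hippocampus minus cortex, was -0.51 ± 0.09 in control (limma adjusted p = 0.0018), -0.45 ± 0.09 in CCH (limma adjusted p = 0.0042) and -0.79 ± 0.09 in CIH (limma adjusted p = 5.4e-05).

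On the low-Xist arrays alone Zfp521 differed by -0.51 in control (limma adjusted p = 0.011), -0.51 in CCH (limma adjusted p = 0.058) and -0.74 in CIH (limma adjusted p = 0.0081). The difference had the same sign within all 3 slides of each set, and leaving out any 1 array did not change a call. In the deposited series values, an alternative set of intensities, the differences were -0.96 in control, -0.94 in CCH and -1.02 in CIH. The larger gap in CIH than in control did not pass as an interaction (-0.28 ± 0.13, limma adjusted p = 1).

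**Figure D4:**
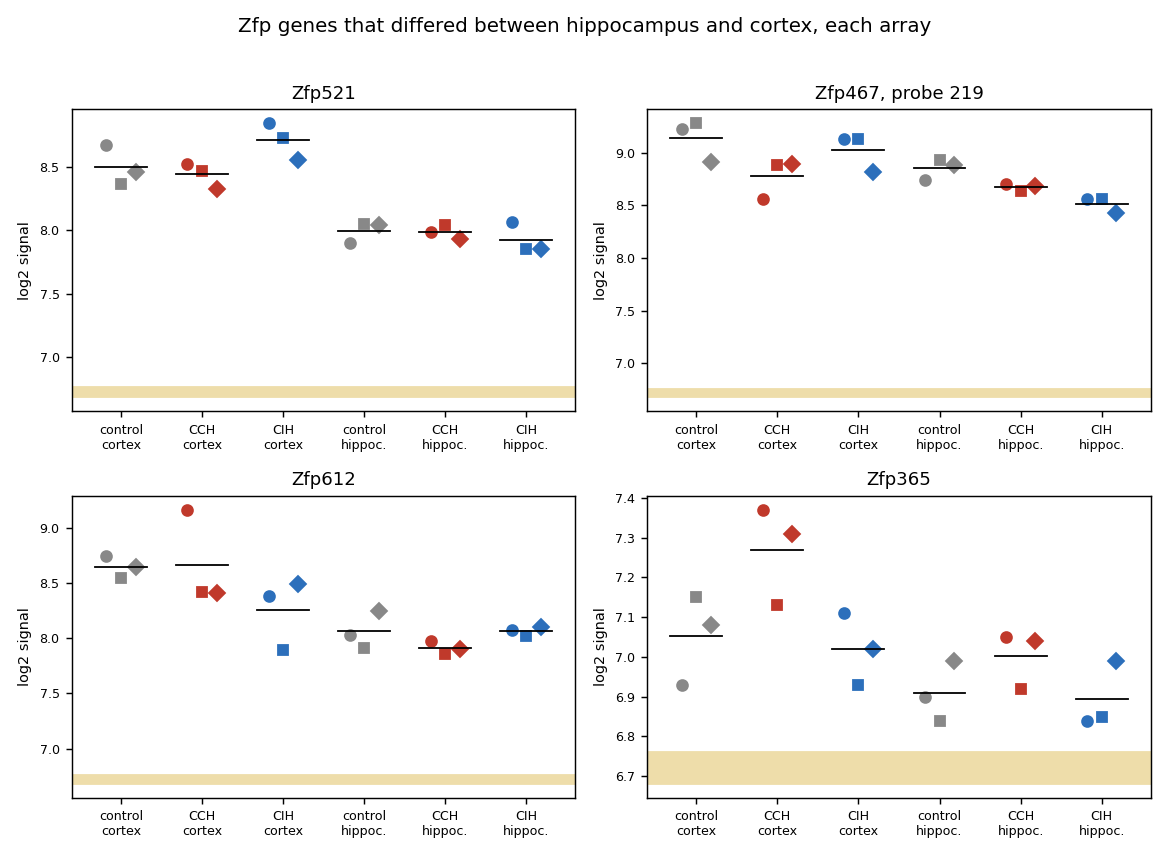
Log2 signal (vertical axis) of 4 Zfp probes called between hippocampus and cortex in at least 1 condition, on each array by group (horizontal axis), with symbols, bars and band as in the plot of Zfp24 and Zfp870. The 9 hippocampus arrays of Zfp521 lie between 7.85 and 8.07 and the 9 cortex arrays between 8.33 and 8.85, while the other genes overlap between tissues in at least 1 condition.

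The other genes were called between tissues in 1 condition each. Zfp612 was 9.16, 8.42 and 8.41 in CCH cortex and 7.97, 7.86 and 7.90 in CCH hippocampus, a difference of -0.75 ± 0.18 (limma adjusted p = 0.011). Without CCH cortex 1 the fit gave the smallest difference, -0.50, still past the test. Fitted on the compared groups alone it did not pass (limma adjusted p = 0.089). On the low-Xist arrays, where CCH cortex 1 is the only CCH cortex array, it was -1.24 (limma adjusted p = 0.00051), and in the series values -1.33. In control, at 8.74, 8.54 and 8.64 against 8.03, 7.91 and 8.25, it did not overlap either but just missed the threshold (-0.58 ± 0.18, limma adjusted p = 0.052), and in CIH, with 8.38, 7.89 and 8.49 in cortex against 8.02 to 8.10 in hippocampus, the tissues overlapped. Zfp365, which in mouse takes part in neurite outgrowth and oligodendrocyte differentiation, was 7.37, 7.13 and 7.31 in CCH cortex and 7.05, 6.92 and 7.04 in CCH hippocampus. Its difference, hippocampus minus cortex, was -0.27 ± 0.08 (limma adjusted p = 0.03), and 4 of 18 fits with 1 array left out lost the call (highest limma adjusted p = 0.12), as did the fit on the compared groups alone (limma adjusted p = 0.1). On the low-Xist arrays it was -0.39 (limma adjusted p = 0.049). Zfp638, a nuclear protein that binds RNA and is among the brightest Zfp probes, was 10.45, 10.35 and 10.37 in CCH cortex against 10.30, 9.99 and 10.15 in CCH hippocampus, -0.25 ± 0.07 (limma adjusted p = 0.042). That call was lost in 12 of 18 fits with 1 array left out (highest limma adjusted p = 0.19) and on the low-Xist arrays (limma adjusted p = 0.17), and in control and CIH the difference was 0.04 and 0.08.

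Zfp467, a regulator of fat and bone cell fate, had 2 measured probes. The brighter was 9.13, 9.13 and 8.82 in CIH cortex and 8.56, 8.56 and 8.43 in CIH hippocampus, with no overlap and a difference of -0.51 ± 0.11 (limma adjusted p = 0.0078). In control it was 9.22, 9.28 and 8.91 against 8.74, 8.93 and 8.88, which overlapped (-0.28 ± 0.11, limma adjusted p = 0.13), and in CCH the difference was -0.10. The other probe gave -0.19 ± 0.07 in CIH (limma adjusted p = 0.094) and correlated with the first at 0.22 over the 18 arrays. On the low-Xist arrays alone the call was lost (-0.48, limma adjusted p = 0.079). All 8 measured oligodendrocyte markers also had lower means in hippocampus than in cortex in each of the 3 sets, and their part in these tissue differences was not tested.

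The response of Zfp genes to hypoxia did not pass as different between the tissues. Of 91 Zfp probes 0 passed the limma interaction for CCH and 0 for CIH, as did 0% of all probes, with 2 and 1 Zfp probes at an unadjusted p under 0.05 (2.20% and 1.10%, against 4.57% and 2.61% of all). The smallest p-values belonged to Zfp638 (-0.29 ± 0.11) and Zfp316 (-0.31 ± 0.12) for CCH and to Zfp94 (-0.22 ± 0.08) for CIH, each a hippocampus change minus a cortex change, and each with a limma adjusted p of 1.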

How the data were processed

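Labelled RNA was measured on Illumina bead arrays (Mouse-6 V1). The deposited scanner export gives an intensity per probe without normalization, per the file headers, and a detection score, a fraction up to 1 that ranks the probe against negative controls. The submitters' processing notes name BeadStudio 2.0 and the file header names 1.5.1.3, and the sources used here do not say which made the values. Of the export, 108 further columns were not used. The deposited series intensity values served as an alternative only: how they were made and centred are unstated, 44.1% of cells of measured probes are empty, and column medians ran from 288.74 to 594.1. They lay below the export by a median of 192.28 to 253.59 on each array but control cortex 2, where the median difference was 0.

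Background was corrected with limma 3.58.1 (R 4.3.3) from the detection scores (nec, offset 16), then quantile normalization and log2 followed. Probes with a detection score above 0.99 on at least 3 of 18 arrays were fitted with a mean per group over all 18 arrays, lmFit and eBayes, and Benjamini-Hochberg adjustment over all 14664 probes; calls have an adjusted p under 0.05. The pipeline was tested on simulated data.

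Of 10024 identifier numbers of 5 or more digits, 81.1% matched a mouse gene, against 45.9% after adding 1. Identifiers were the only key to gene names. The Zfp genes, the gene lists and the marker lists were chosen with earlier results of these data known. Named are called probes, the 5 most positive and 5 most negative differences with groups not overlapping, or the 3 smallest p-values in averaged comparisons and interactions. Called tissue differences in CCH and CIH arrays, the comparison of detection with Zfp871 and the H2 genes were added after values were seen. So were the counts of probes for which all CCH or all CIH arrays lay apart from the others.

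The hybridization log placed the arrays on 3 slides, 1 array of each group per slide, and replicate numbers in the titles equal slides. After removal of group means, 31 of 45 array pairs of the same number correlated above 0.1 (median 0.226), against 17 of 90 of unlike number (median -0.0966). Not every pair did, so the block is an alternative. Other alternatives changed the background correction, normalization, offset, detection filter, values, arrays fitted and Xist level. For lists, the probe with the smallest p stood for a gene. Protein sequences were not used here.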

Additional observations from a re-analysis of the deposited data

How the results depend on the processing

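Across the alternatives for the 74 named Zfp results, 1950 values kept their direction and side of the threshold, 57 lost a call, 14 gained one and 4 reversed: Zfp330 in CIH hippocampus (-0.39 in the series values), Zfp653 between CIH and CCH in hippocampus (0.02 with median centring, 0.05 in the series values) and Zfp276 in that comparison (0.01 with median centring). Most of the named results were not called in the main fit, and staying uncalled with the same sign counted as kept. Only called results could lose a call. The cause of the changes was not tested, except where fewer probes or arrays entered. Counts of called Zfp probes moved as follows. With probes detected on all 18 arrays, which leaves out Zfp24, they were 0 in CCH cortex, CCH hippocampus, CIH against CCH in both tissues and CCH averaged over tissues, and 2 between tissues in control. In the series values, where limma drops empty cells, the same hypoxia comparisons and averaged CIH gave 0. Zfp24, Zfp871 and Zfp870, the genes called there in the main fit, had no test result in those values, so their calls could not be checked. On compared groups alone both CCH and both CIH against CCH comparisons gave 0, averaged CCH 1, and tissue 2 in control and 1 in CCH. On the low-Xist arrays CCH cortex gave 3, CIH against CCH 2 in cortex and 0 in hippocampus, averaged CCH 1, averaged CIH 0, the CCH interaction 1, and tissue 2 in control and 1 in CIH. With Xist as a covariate averaged CCH gave 1 and tissue in control 3. No background correction gave 1 in CIH cortex and 2 between tissues in control. Median centring gave 1 in CIH cortex, 2 for CIH against CCH in hippocampus, and 2 and 10 between tissues in control and CCH. Offset 50 and no detection filter gave 1 in averaged CCH, and no filter 2 between tissues in CCH. With the replicate block, which pairs arrays by slide, averaged CCH gave 1 and tissue gave 3 in control and 7 in CCH, and Zfp871 lost its averaged call. Leaving out 1 array gave 1 to 1 in CCH cortex, CCH hippocampus and averaged CIH, 1 to 2 in averaged CCH and in CIH against CCH in cortex, 0 to 2 in hippocampus, 0 to 1 in CIH of either tissue, 0 to 0 in interactions, and 1 to 3, 2 to 6 and 2 to 4 between tissues in control, CCH and CIH. Over all probes, calls in CCH cortex ran from 29 (series values) to 743 (low-Xist arrays), beside 124. Signal over background limits Zfp24, Zfp871 and Zfp955a, which lie at the detection floor.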

Other observations

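Probes outside chromosome 17 were also high or low on the arrays that differed in Zfp871. B3galt6, a galactosyltransferase, had log2 signals of 6.54 to 6.59 on the 6 control arrays and CCH hippocampus 2 and of 7.22 to 7.65 on the other 11. Brat1, a partner of BRCA1 and ATM, was the reverse, at or above 9.58 on those 7 arrays and 8.09 to 8.88 on the others. On CIH cortex 3 and CIH hippocampus 3, where Zfp871 was detected, B3galt6 was on the high side, at 7.38 and 7.50. These genes were picked after their values were seen, no arrays were grouped or tested by them, and why the arrays differ was not tested.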
